A study of Homo sapiens with 2 samples.

Results

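A set of 10 genes of the glutathione, thioredoxin and NRF2 antioxidant systems was followed: GCLC, GCLM, GSR, TXNRD1, TXN, SRXN1, NQO1, HMOX1, CAT and GPX4. They were chosen by gene symbol under a rule that uses no measured value, and each of the 10 was found among the 60623 genes listed in the count files. The cells were OCI-AML3, an established human acute myeloid leukaemia line labelled as bone marrow in origin and as WT in genotype, and known to carry mutant NPM1. Omipalisib (GSK2126458) inhibits the class I phosphoinositide 3-kinases and mTOR. One culture had the drug at 50 nM in its medium for 24 h and the other had the vehicle, DMSO, both in MEM alpha with 20% serum. RNA sequencing gave 1 library per culture, with 26367832 counted fragments in DMSO and 22599164 in omipalisib. With 1 library on each side there is no replicate check and no test, so the differences below compare these libraries and not the conditions.

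Glutathione is a tripeptide that cells use to reduce peroxides. Glutamate-cysteine ligase, a heterodimer of the catalytic subunit GCLC and the modifier subunit GCLM, makes its precursor, and glutathione reductase (GSR) restores it after use. GPX4 is the peroxidase that spends glutathione on lipid peroxides. The thioredoxin system works in parallel, with thioredoxin (TXN), its reductase (TXNRD1) and the peroxiredoxins, which sulfiredoxin (SRXN1) repairs. NRF2, encoded by NFE2L2, switches on many of these genes together with the quinone reductase NQO1 and the haem oxygenase HMOX1. KEAP1 marks NRF2 for destruction, and BACH1 competes with NRF2 at the same DNA element. Catalase (CAT) decomposes hydrogen peroxide in peroxisomes and is also a known target of FOXO factors.

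The NRF2 element can be written TGACNNNGC, or GCNNNGTCA on the other strand. It shares its first letters with the sites of AP-1 factors, so a match is a description of letters and not a bound site. Promoter windows of 300 bases, from 250 before to 50 after the start in RefSeq on GRCh38.p14, were at hand for 8 of the 10 genes, in 11 windows. HMOX1 and GSR had no window, so their promoters were not searched. A match on either strand occurred in 3 of these windows, those of 2 genes, GCLM and TXNRD1. Over all genes with a window, 16.1% of genes and 13.3% of the 35116 windows held one. The 250 bases before the start are printed for the ligase subunits, whose values differed from each other, for the TXNRD1 start inside the gene, and for NQO1, which was lower without a match in its window. They read 5′ to 3′ on the gene's strand, with the match in capitals.

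GCLM, chr1:93909431-93909680, minus strand: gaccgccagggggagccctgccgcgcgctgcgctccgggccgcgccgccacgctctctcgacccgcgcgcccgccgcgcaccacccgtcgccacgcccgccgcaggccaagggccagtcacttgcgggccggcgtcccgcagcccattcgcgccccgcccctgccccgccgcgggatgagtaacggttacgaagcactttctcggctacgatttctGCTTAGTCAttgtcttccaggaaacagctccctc
GCLC, chr6:53545102-53545351, minus strand: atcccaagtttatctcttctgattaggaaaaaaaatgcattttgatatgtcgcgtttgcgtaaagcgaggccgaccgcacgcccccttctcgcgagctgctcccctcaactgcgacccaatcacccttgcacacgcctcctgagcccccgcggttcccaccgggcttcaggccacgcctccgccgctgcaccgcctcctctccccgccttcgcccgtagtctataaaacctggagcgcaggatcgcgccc
TXNRD1, chr12:104286782-104287031, plus strand: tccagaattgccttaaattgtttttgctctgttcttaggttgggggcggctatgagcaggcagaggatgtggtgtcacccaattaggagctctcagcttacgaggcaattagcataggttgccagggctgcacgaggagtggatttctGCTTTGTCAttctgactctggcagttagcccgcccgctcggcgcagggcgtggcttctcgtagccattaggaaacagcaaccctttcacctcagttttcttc
NQO1, chr16:69726561-69726810, minus strand: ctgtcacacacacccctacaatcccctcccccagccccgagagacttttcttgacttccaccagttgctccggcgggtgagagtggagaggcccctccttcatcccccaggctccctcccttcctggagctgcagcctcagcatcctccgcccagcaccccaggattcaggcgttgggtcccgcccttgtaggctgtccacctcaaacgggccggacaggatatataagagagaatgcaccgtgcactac

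The GCLM match, GCTTAGTCA, begins 34 bases before the start, and the TXNRD1 match, GCTTTGTCA, begins 102 bases before its start. The other TXNRD1 window, at the outer start of the gene, held 2 matches, TGACTTCGC and GCTCCGTCA. No window of the 8 genes held the FOXO site GTAAACA or the ATF4 element TGATGNAA on either strand, which 3.42% and 3.62% of all windows held. Of the 2118 measured genes with an NRF2 element match in a window, 34.7% were lower and 26.0% higher in omipalisib, against 32.6% and 26.5% of the 8658 measured genes whose windows held none.

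On a scale that corrects for exon length, GPX4 was the most abundant of the 10 genes in both libraries, with 395 TPM (counts per base of exon, scaled to the same total in each library) in DMSO and 391.7 in omipalisib. CAT (175 TPM), TXN (173), TXNRD1 (109) and GSR (63.8) followed in DMSO, and the counting intervals of CAT and TXN overlapped. GCLM had 36.2 TPM there, NQO1 24.2, HMOX1 17.6 and GCLC 13.5. In omipalisib the order was GPX4, TXN (143 TPM), CAT (122), TXNRD1 (96.4), GSR (58.5), GCLM (21.97), NQO1 (15.6), GCLC (13.9), HMOX1 (8.0) and SRXN1. CAT thus stood below TXN and HMOX1 below GCLC, while the intervals of NQO1 and GCLC overlapped. SRXN1 had 4 counts in DMSO and 1 in omipalisib and was not measured. For this gene, 85.0% of the exon bases are shared on the same strand with another annotated gene, ENSG00000270299, and the counting drops fragments that fall in 2 genes. That gene had 0 counts in each library. The log2 ratio of SRXN1, −1.41 (−7.45 to 1.51), carries no direction.

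**Figure D1:**
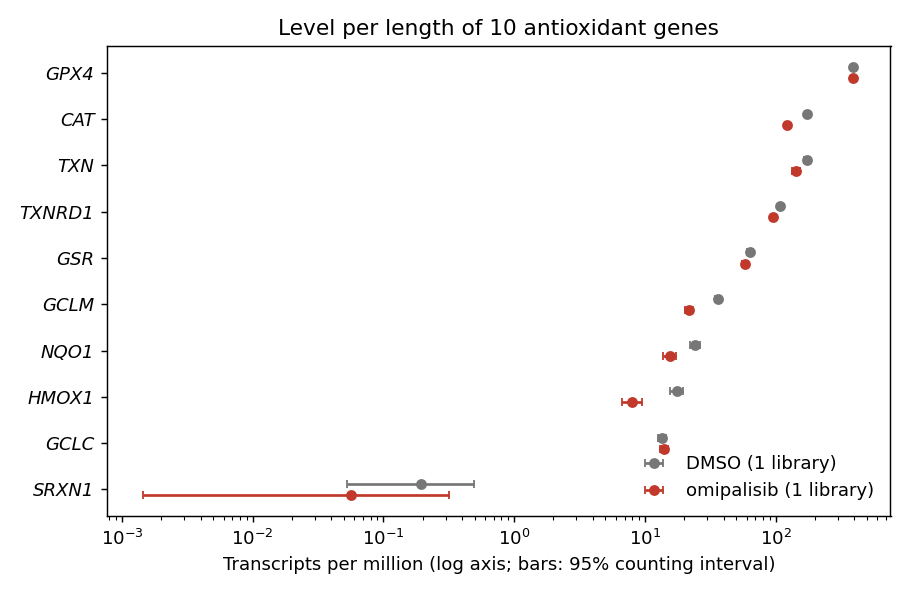
Level per length of the 10 genes in the DMSO (grey) and omipalisib (red) library, in TPM on a log axis, with bars for the 95% counting interval. HMOX1 had 17.6 and 8.0 TPM and GCLC 13.5 and 13.9, while SRXN1, with 4 and 1 counts, has wide intervals.

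Differences are given as log2 ratios of omipalisib over DMSO after library scaling, each with a 95% interval for counting error. A gene is called lower or higher where that interval excludes 0 and both libraries together hold at least 20 counts. Among the 9 genes that reached this minimum, 8 were lower and none was higher. Over all 15660 genes measured, the same rule called 28.6% lower and 26.1% higher. Well-counted genes are called more often. Among the 12329 genes with at least 100 counts, a level that each of the 9 exceeded, 4293 (34.8%) were lower and 3578 higher. Numbers of lower and higher genes in the lists below were not tested against these background numbers. HMOX1, GCLM and NQO1 were at least 1.5-fold lower, a size reached downwards by 4.76% and upwards by 9.58% of measured genes. HMOX1 alone among the 9 was at least 2-fold lower, against 1.29% of measured genes, and 4.02% were at least 2-fold higher. The median log2 ratio of the 9 genes was −0.33, with members from −1.19 to −0.0077, and that of all genes measured was 0.0029.

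HMOX1, the inducible enzyme that degrades haem (GRCh38 chromosome 22, 35380361 to 35394207), had 309 counts in the DMSO library and 120 in the other. Scaled to library size, this was 11.9 CPM (counts scaled by library size) and 5.22 CPM. The level in omipalisib was 2.28-fold lower, which gave a log2 ratio of −1.19 (−1.51 to −0.88), and 0.958% of measured genes had a lower ratio. NQO1, the quinone reductase (chromosome 16, 69706996 to 69726668), had 550 and 302 counts, or 21.2 and 13.1 CPM. Its log2 ratio was −0.69 (−0.90 to −0.49), a 1.61-fold lower level. HMOX1 was lower relative to NQO1 as well: the count of HMOX1 over that of NQO1 was 0.562 in DMSO and 0.397 in omipalisib, a ratio of 0.707 (0.544 to 0.917) that does not depend on library scaling.

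The subunits of glutamate-cysteine ligase differed from each other. GCLM (chromosome 1, 93885199 to 93909456) had 1502 counts in DMSO and 778 in omipalisib, or 57.9 and 33.9 CPM. Its log2 ratio was −0.77 (−0.90 to −0.65), a 1.71-fold lower level. GCLC (chromosome 6, 53497341 to 53616970) had 888 and 783 counts, or 34.3 and 34.1 CPM, and its log2 ratio was −0.0077 (−0.15 to 0.13). There were 1.69 GCLM counts per GCLC count in DMSO and 0.994 in omipalisib, a ratio of 0.588 (0.515 to 0.670). The promoter window of GCLM holds an NRF2 element match and that of GCLC does not, and bases outside the windows were not searched. Any part of the match in this difference was not tested.

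**Figure D2:**
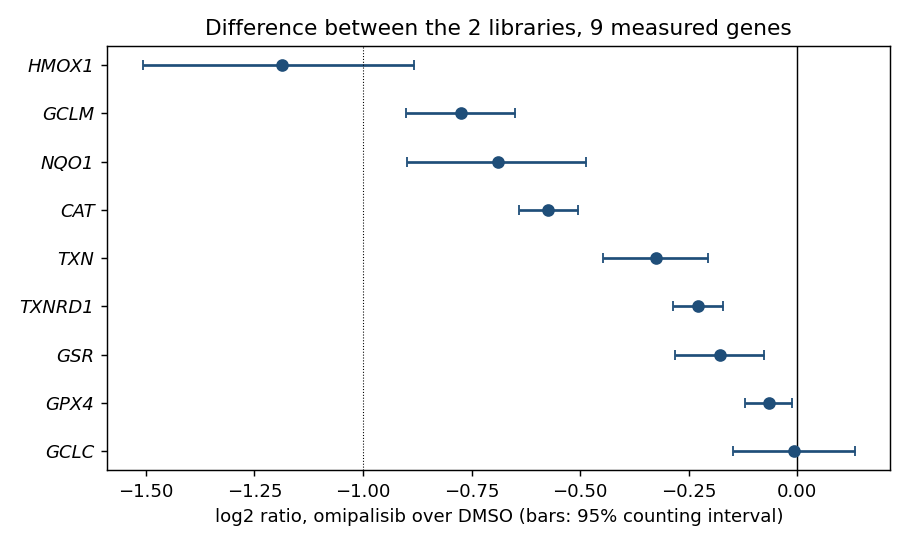
The log2 ratio of omipalisib over DMSO for the 9 measured genes, with bars for the 95% counting interval, a solid line at 0 and a dotted line at −1. HMOX1 (−1.19), GCLM (−0.77), NQO1 (−0.69) and CAT (−0.57) lie farthest below 0, and the bar of GCLC crosses it.

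The genes that restore and use glutathione differed less. GSR (chromosome 8, 30678066 to 30727846) had 1756 and 1375 counts, or 67.7 and 59.8 CPM, which gave a log2 ratio of −0.18 (−0.28 to −0.08). GPX4 (chromosome 19, 1103926 to 1106791) had 6094 and 5161 counts, or 235 and 225 CPM. Its log2 ratio of −0.066 (−0.12 to −0.012) was the smallest of those called, and its interval included 0 with scaling by total counts (−0.017) or once a trend with exon length was removed (−0.039). The count of GSR over that of GPX4 was 0.288 in DMSO and 0.266 in omipalisib, a ratio of 0.925 (0.853 to 1.0).

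Thioredoxin and its reductase were both lower. TXN (chromosome 9, 110243810 to 110256507) had 1335 and 944 counts, or 51.5 and 41.1 CPM, which gave a log2 ratio of −0.33 (−0.45 to −0.20). TXN has 7 annotated pseudogenes, which held 37 and 24 counts in all, so its count is uncertain. TXNRD1 (chromosome 12, 104215779 to 104350307) had 5582 and 4222 counts, or 215 and 184 CPM, which gave a log2 ratio of −0.23 (−0.29 to −0.17). TXNRD1 counts per TXN count were 4.18 and 4.47, a ratio of 1.07 (0.974 to 1.17), so a difference of this pair was not detectable at this depth.

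CAT (chromosome 11, 34438934 to 34472060) is the peroxisomal member of the set. It had 4775 counts in DMSO and 2845 in omipalisib, or 184 and 124 CPM. Its log2 ratio was −0.57 (−0.64 to −0.51), a 1.49-fold lower level, just short of the 1.5-fold size, which it passed with the size factors of DESeq2 (−0.61) or with the DMSO library thinned to equal depth. The count of CAT over that of GPX4 was 0.784 in DMSO and 0.551 in omipalisib, a ratio of 0.704 (0.663 to 0.747). Of 37 measured peroxisome genes, 9 were higher, 6 lower and 22 were not called, and the median was 0.022. The lower ones included the peroxisomal transporters ABCD2 (−0.86) and ABCD3 (−0.48), and the higher ones the import receptor PEX5 (0.19). ABCD4 (0.45), also on the list and higher, is a relative of ABCD2 and ABCD3 but not a peroxisomal transporter.

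**Figure D3:**
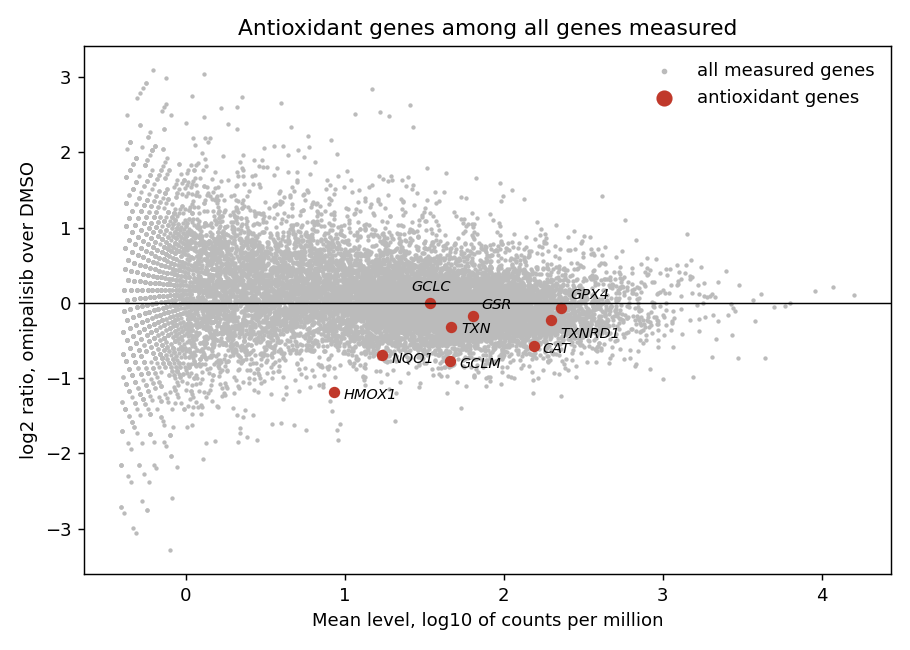
The log2 ratio of omipalisib over DMSO against the mean level (log10 of CPM) for the 15660 genes measured (grey) and the 9 antioxidant genes (red). HMOX1 lies near the lower edge of genes at its level and GPX4 close to 0.

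The messages of NRF2 and its partners went in both directions. NFE2L2 had 3288 and 2713 counts, which gave a log2 ratio of −0.10 (−0.18 to −0.03), whose interval included 0 with scaling by total counts. Its count is uncertain, since 18.6% of its exon bases are shared with another annotated gene on its strand. KEAP1, the adaptor that marks NRF2 for destruction, had 3134 and 2234 counts, which gave a log2 ratio of −0.31 (−0.39 to −0.24), and its ligase scaffold CUL3 had −0.24. BACH1, the repressor, had 1713 and 2371 counts, or 66.1 and 103 CPM, and was higher, with a log2 ratio of 0.64 (0.55 to 0.73). SQSTM1, the autophagy receptor p62 that binds KEAP1, had 2209 and 3265 counts, which gave a log2 ratio of 0.74 (0.66 to 0.82). The small MAF partner MAFF was also higher, with only 97 and 138 counts, giving a log2 ratio of 0.68 (0.30 to 1.07), and MAFG had −0.026 (−0.090 to 0.039). PGAM5, a mitochondrial phosphatase that binds KEAP1, had −0.62. Of the 20 measured NRF2 regulators, 6 were higher, 8 lower and 6 had intervals that included 0.

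Other NRF2 targets did not share one direction. Of 29 measured on this list, 11 were higher, 10 lower and 8 were not called, and the median was 0.0073. The list is a choice of targets. Genes that stand only on other lists, such as SLC7A11, PRDX1 and SQSTM1, are not in these numbers. The aldo-keto reductase AKR1C3, with 51 and 109 counts, had the largest value at 1.26 (0.78 to 1.78), and AKR1C1 had 0.50. These genes are near-identical copies, so their counts are uncertain. The hydrolase ABHD4 had 0.83 and the long noncoding RNA LUCAT1 0.80. Lower targets included PIR (−0.75), with 126 and 66 counts, and CBR3 (−0.70), with 50 and 27 counts and no call under total-count scaling. AIFM2, the ferroptosis suppressor FSP1, was lower as well, at −0.62 (−0.83 to −0.42). The ferritin light chain FTL had 62850 and 47088 counts, which gave a log2 ratio of −0.24, and the heavy chain FTH1 had 0.053 (0.022 to 0.083), which included 0 with the size factors of DESeq2. Ferritin genes have many pseudogenes and are uncertain.

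Around glutathione, genes that feed, degrade or export it went in both directions. Of 23 measured genes of its synthesis, export and breakdown, 10 were lower and 8 higher and the median was −0.052. SLC7A11, the cystine carrier that supplies cysteine, had 1070 and 727 counts, which gave a log2 ratio of −0.38 (−0.52 to −0.25), and its partner SLC3A2 had −0.36. GSS, which completes the tripeptide, had −0.12 (−0.23 to −0.001), with an interval that included 0 under total-count scaling. The glutathione-degrading enzymes CHAC2 and CHAC1 had 315 and 103 and 124 and 47 counts. Their log2 ratios were −1.43 and −1.22, both at least 2-fold lower, and the leucine aminopeptidase LAP3 had −0.71. Higher members were the 5-oxoprolinase OPLAH (0.79), the glutamyltransferase relative GGT7 (0.70) and the export pump ABCC2 (1.05), with 38 and 70 counts.

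Among the other enzymes that use glutathione, GPX1, the abundant cytosolic peroxidase, had 14443 and 14436 counts, which gave a log2 ratio of 0.17 (0.14 to 0.21). The glutaredoxins GLRX3 (−0.45), GLRX5 (−0.40) and GLRX2 (−0.36) were lower. Of the 8 measured peroxidases and glutaredoxins, 3 were lower and 1 higher and the median was −0.070. Of 17 measured genes on the list of glutathione S-transferases, 5 were higher and 3 lower and the median was −0.0022. The list is wider than the enzymes themselves. Its lower genes besides GSTP1 were the chloride channel protein gene CLIC1 (−0.55) and GSTCD (−0.39). GSTP1, the main family member in many cells, had 5706 and 3355 counts, which gave a log2 ratio of −0.59 (−0.65 to −0.53), and the peroxisomal and mitochondrial GSTK1 had 0.45 (0.38 to 0.51).

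Of 24 measured thioredoxin partners and peroxiredoxins, 14 were lower and 6 higher and the median was −0.14. PRDX1, a cytosolic peroxiredoxin, had 5369 and 2956 counts, which gave a log2 ratio of −0.69 (−0.75 to −0.62). PRDX4 (−0.46), PRDX3 (−0.37), PRDX2 (−0.18) and PRDX5 (−0.13, not called with total-count scaling) were lower as well, and PRDX6 had −0.048 (−0.117 to 0.020). The mitochondrial thioredoxin TXN2 had −0.31, and the reductase TXNRD2 0.094 (−0.083 to 0.271). RRM1 and RRM2, subunits of ribonucleotide reductase, an enzyme that thioredoxin reduces, had −0.79 and −0.67. TXNIP, the inhibitor that binds thioredoxin, was higher, with 12582 and 19817 counts, giving a log2 ratio of 0.83 (0.80 to 0.86). MAP3K5, the kinase ASK1 that thioredoxin holds inactive, had 0.67. The list of superoxide dismutases and their partners was lower in 7 of 9 and higher in 2, and the median was −0.46. Most of this list is not dismutases, and it includes the sestrins SESN2 (−0.56) and SESN3 (−0.50), which were lower, and SESN1 (0.21), which was higher. SOD1 had −0.53 (−0.62 to −0.45), while its copper chaperone CCS was higher at 0.37 (0.20 to 0.54).

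**Figure D4:**
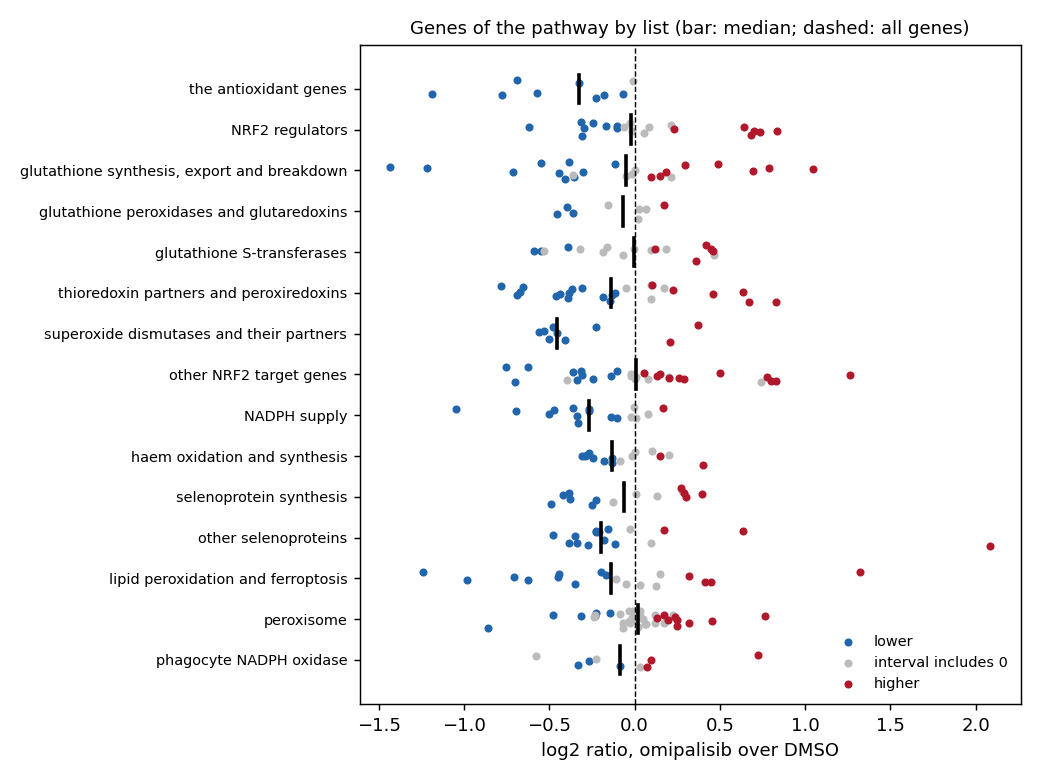
The log2 ratio of omipalisib over DMSO for measured genes of each list, blue where lower, red where higher and grey where the counting interval includes 0, with a black bar for the list's median and a dashed line for all genes. The medians of the antioxidant genes (−0.33) and of superoxide dismutases and their partners (−0.46) lie farthest to the left, and those of other NRF2 targets and peroxisome genes lie near 0.

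NADPH drives both reductases. Of 16 measured genes that supply it, 11 were lower and 1 was higher and the median was −0.27. The folate enzymes ALDH1L2 (−1.05), MTHFD1 (−0.70) and MTHFD2 (−0.47) and the isocitrate dehydrogenases IDH2 (−0.50) and IDH1 (−0.36) were lower. The pentose phosphate enzyme TALDO1 had 0.0073 (−0.055 to 0.069), and PGLS was the higher gene at 0.17.

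GPX4 and TXNRD1 are selenoproteins, which carry selenocysteine. Of 16 other measured selenoprotein genes, 11 were lower and 3 higher (median −0.20), among them SELENOI (−0.48), MSRB1 (−0.39) and SELENOW (−0.34). SELENOP, the secreted selenium carrier, had 40 and 152 counts and was higher, with a log2 ratio of 2.09 (1.59 to 2.64). Of 14 measured genes on the list of selenoprotein synthesis, 6 were lower and 4 higher and the median was −0.061. The list also takes in genes with broader roles. Of these, NCL (−0.38), ELAVL1 (−0.42) and the receptor gene LRP8 (−0.25) were lower, and the ribosomal protein gene RPL30 (0.40) was higher. Each of the 14 had at least 100 counts, and of all 12329 such genes 4293 were lower and 3578 higher. SEPHS1 had −0.49, while SEPSECS, which makes selenocysteine on its tRNA, had 0.30, and SECISBP2, which binds the selenocysteine insertion element, 0.27.

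Genes next to HMOX1 and GPX4 in function gave mixed values. Of 15 measured genes of haem oxidation and synthesis, 8 were lower and 2 higher and the median was −0.13. The constitutive haem oxygenase HMOX2 had −0.27 and the biliverdin reductase BLVRA −0.31. Of 18 measured genes of lipid peroxidation and ferroptosis, 9 were lower and 4 higher and the median was −0.14. TFRC (−1.24), SCD (−0.98) and DHCR7 (−0.70) were lower, and NCOA4, the receptor that delivers ferritin to lysosomes, was higher at 0.41. Of 9 measured genes of the phagocyte NADPH oxidase, a source of superoxide in myeloid cells, 3 were higher and 3 lower. Its catalytic subunit CYBB had 5487 and 4977 counts, which gave a log2 ratio of 0.033 (−0.023 to 0.089), CYBA had −0.33, and NCF1, which has near-identical pseudogenes, had 0.72.

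The labelled cell type was checked against markers. Of 15 myeloid markers, 11 reached 1 CPM in DMSO and 12 in omipalisib, with summed levels of 1646 and 1863 CPM, and KIT was at 0 counts in both. Of the 13 measured, 7 were higher in omipalisib, 1 was lower and 5 were not called. CSF1R (1.66) and CSF3R (1.10), receptors of myeloid growth factors, had the largest values, and lysozyme (LYZ), with 8323 and 5648 counts, was the lower one at −0.39 (−0.43 to −0.34). MPO had 61 and 36 counts, with an interval from −1.22 to 0.030. Of 19 erythroid and megakaryocyte markers, 2 reached 1 CPM in each library, with summed levels of 7.91 and 14.5 CPM, and HBB and ALAS2, which define erythroid cells, were at 0 in both libraries. The 3 measured were the transcription factor TAL1, with 134 and 274 counts (log2 ratio 1.2), the integrin ITGA2B, with 23 and 42 (1.03), and the platelet protein PPBP, with 47 and 16 (−1.35). Summed levels were 402 and 425 CPM for 17 lymphoid and 133 and 119 CPM for 16 stromal and epithelial markers, and CD3E, COL3A1 and MS4A1 were at 0 counts in both. Most of the lymphoid sum came from CD4, with 7658 and 7226 counts, and NCAM1, with 2483 and 2329, and PAX5 had 187 and 128. Most of the stromal and epithelial sum came from the collagen gene COL1A2, with 2507 and 1564 counts (log2 ratio −0.51), and PECAM1 had 381 and 642 (0.93). The part of these markers in the results above was not tested. In RNA from whole cultures, fewer cells of a type and less RNA per cell cannot be told apart.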

How the data were processed

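Per the file headers, the deposited values are counts of fragments per gene, which the authors made using featureCounts 2.0.1; exons were summed into genes, pairs had to align at both ends, and the strand setting was reverse (2). That tool by default leaves out fragments with several alignments or in 2 genes. The exon length used for TPM is another deposited column, per the file headers. The submitters' processing notes name hg19 and GRCh37, but of 58516 listed genes that are in GENCODE release 29, 58513 overlap its GRCh38 position, so coordinates are GRCh38. The aligner is not given in the sources used here.

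Libraries were scaled by the TMM method (edgeR 4.0.16, R 4.3.3; factors 0.983 for DMSO and 1.02 for omipalisib), and 0.5 was added to each count for the log2 ratio. Intervals are exact Clopper-Pearson 95% intervals (conditional exact between genes, exact Poisson for TPM). They cover counting error alone, since each group has 1 library. Reads that carry no molecular identifier are not independent, so the intervals may be too narrow even for that error. Calls need 20 counts over both libraries. A check on simulated counts covered only the ratio, its interval and the fold call. The simulated counts varied by counting error alone, which the interval assumes, so the check cannot show whether the intervals suit real libraries. TMM scaling, ratios between genes, TPM, list counts and the promoter search were not part of the check.

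The members, the 19 lists and the rules were chosen with earlier results of these data known. Named genes were the members, NFE2L2, KEAP1, BACH1 and, per list, up to 3 genes in the direction of the median and 1 against it with at least 100 counts in 1 library; other genes, 30 of them besides markers, and the markers given with values were named after their values were seen. Alternatives were 3 other scalings, totals without mitochondrially encoded genes, a DMSO library thinned to equal depth, 2 added to each count, no minimum or 100 counts, and removal of a length trend.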

Additional observations from a re-analysis of the deposited data

How the results depend on the processing

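Of the 27 summary results, no count of the antioxidant genes called moved by over 1.5 times under the alternatives run, and no called gene changed direction. No list median left an interval taken from the ranked values of its genes. That interval, −0.77 to −0.066 for the antioxidant genes, is wide beside the shifts from scaling, so staying inside it says little. Ratios between genes were rerun with the thinned DMSO library alone, and none moved beyond its interval. The ratio of SRXN1 to TXN, on 5 SRXN1 counts in all, was 0.354 (0.00717 to 3.58) and became 0.601 (0.0102 to 11.6) with the DMSO library thinned, so it carries no direction. Medians near 0 changed sign under some alternatives for NRF2 regulators, other NRF2 targets, glutathione S-transferases, peroxisome genes and the phagocyte NADPH oxidase. The number of antioxidant genes called lower was 7 or 8, and the number at least 1.5-fold lower 3 or 4. Their median ranged from −0.45 to −0.28. HMOX1 ranged from −1.28 to −1.14, GCLM from −0.81 to −0.73, NQO1 from −0.73 to −0.64, CAT from −0.61 to −0.52 and GCLC, which was not called, from −0.054 to 0.041. Of 1085 values under an alternative, 21, in 10 genes, lay outside the counting interval of the main value. With total counts as the scale, GPX4, NFE2L2, CYBC1, GSS, PRDX5 and CBR3 were no longer called lower. FTH1 lost its call with the size factors of DESeq2, GPX4 with the length trend removed and CBR3 with a minimum of 100 counts. The median of all genes measured moved from 0.0029 to 0.052 with total counts and to −0.036 with those size factors. No paired analysis was possible because each group has 1 library, and for the same reason no library could be left out. Depth limits genes with few counts, such as CBR3, PIR and MAFF, whose intervals are wide.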
